A study of Homo sapiens with 6 samples.

Results

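SOX, FOX, GATA, T-box and HAND proteins are DNA-binding transcription factors that set cell fate in the embryo, and their genes were followed here in HEK 293T cells with and without the uridylyltransferases TUT4 and TUT7. The genes were chosen by name alone: protein-coding genes whose symbol is SOX, GATA (GATA1 to GATA6), TBX, TBXT, EOMES, HAND or FOX with a number (the FOXO genes left out), and whose largest count over the 6 libraries was above 12. Of 30270 genes in the count table, 68 carried such a symbol and 58 passed the count limit. They comprised 13 SOX, 29 FOX, 5 GATA, 9 T-box and 2 HAND genes. Levels are given as CPM, a count relative to the TMM-scaled size of its library, in the order of replicates 1, 2 and 3. A log2 fold change is ΔTUT4/7 over WT with its standard error, and an adjusted p is that of edgeR's quasi-likelihood test with Benjamini-Hochberg adjustment over 23952 tested genes. A gene passed at an adjusted p under 0.05.

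The study asked how deletion of TUT4 and TUT7, enzymes that add uridines to RNA 3′ ends and mark RNA for decay, changes the transcriptome. HEK 293T is an immortalized human embryonic kidney line. The 3 WT libraries came from unmodified cells and the 3 ΔTUT4/7 libraries from cells labelled as a TENT3A/B knockout, where TENT3A and TENT3B are other names for TUT4 and TUT7. Neither group received a treatment, and total RNA depleted of ribosomal RNA was sequenced from both. The methods state that the WT cells came from a repository and the knockout cells from another laboratory, so the genotype and any drift between the 2 lines cannot be told apart. How many clones the knockout stands for is not given in the sources used here.

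Each family reads DNA through its own domain. SOX proteins bend DNA with an HMG box, FOX proteins bind through a forkhead domain, GATA factors through zinc fingers, T-box factors through the T domain, and HAND proteins as basic helix-loop-helix dimers. In embryos GATA4, GATA6, HAND1, HAND2 and TBX20 act in the heart, SOX5, SOX6 and SOX9 in cartilage, SOX10 in glia and pigment cells, FOXA1 in endoderm and FOXM1 in dividing cells of many kinds. HEK 293T cells carry no such fate, so the levels below are those of factor genes in a transformed culture.

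The libraries held between 18757228 and 33148937 counts. TUT4 measured 212, 216 and 206 CPM in WT and 882, 920.4 and 917 CPM in ΔTUT4/7, that is 4.29-fold higher in the libraries labelled ΔTUT4/7, against the label. TUT7 measured 60.4, 62.6 and 64.8 CPM in WT and 27.2, 25.2 and 26.5 CPM in ΔTUT4/7, and was lower as the label says. Reads from exons that a deletion leaves in place still add to a gene's count, so these levels do not show whether intact transcripts remained, and every direction below rests on the label. Of 10 markers of the HEK 293T lineage, 5 were lower and 5 higher in ΔTUT4/7. Among them, NEFM, a neurofilament subunit, had 74948 counts over the WT libraries and 1 over those labelled ΔTUT4/7. PAX2 and VIM were measured in all 6 libraries and went opposite ways. PAX2 was lower (-0.56 ± 0.23, adjusted p = 0.0409, lost in DESeq2 and without certain libraries) and VIM higher (1.33 ± 0.04, adjusted p = 5.22e-16). Of 8 fibroblast markers, 4 were tested and 2 were lower (COL1A1 -1.45 ± 0.10, COL3A1 -2.34 ± 0.53). The list's summed level was 23.4 to 27.7 CPM in WT and 10.6 to 12.5 CPM in ΔTUT4/7. None of its measured markers was at 0 in a whole group, and DCN, LUM and COL1A2 were absent from the count table used here. What part the markers had in the results was not tested.

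Most of the factor genes differed between the groups, and in both directions. Of the 58, 19 were lower and 24 higher in ΔTUT4/7, and 15 did not pass the test. The shares of 32.8% lower and 41.4% higher lie close to those of all 14766 protein-coding genes tested, 31.8% and 37.9%. Over all tested genes 29.0% were lower and 28.6% higher. Among the factor genes, 11 lower and 4 higher ones differed by 2-fold or more, or 19.0% and 6.90%, against 10.6% and 6.26% of protein-coding genes and 12.4% and 5.90% of all genes. The median log2 fold change over the 58 genes was 0.07, against 0.05 over protein-coding genes and -0.02 over all genes. The 3 ΔTUT4/7 libraries all lay below the 3 WT libraries for 18 factor genes and all above for 24, where 33.6% and 39.7% of protein-coding genes (31.8% and 30.9% of all genes) separated that way.

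The lower 2-fold calls were FOXE1, GATA3, FOXL1, SOX5, HAND2, GATA1, FOXE3, TBX19, HAND1, FOXC2 and SOX10. The higher ones were FOXA1, SOX18, FOXN4 and SOX7. Of the 58, 43 had a mean count of 50 or more, and among these 5 were lower and 3 higher by 2-fold (11.6% and 6.98%, against 7.41% and 5.74% of protein-coding genes at that level). The other 15 held 6 of the 11 lower calls and 1 of the higher ones (40.0% and 6.67% of the 15), and protein-coding genes under that level were also often called lower by 2-fold (27.8%, with 9.06% higher). In 7 of the 15 every ΔTUT4/7 library lay below every WT library and in 3 above, against 36.9% and 15.0% of those sparse protein-coding genes. At any size, 12 of the 43 were lower and 21 higher (27.9% and 48.8%), against 31.7% and 42.7%, with a median log2 fold change of 0.20.

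**Figure D1:**
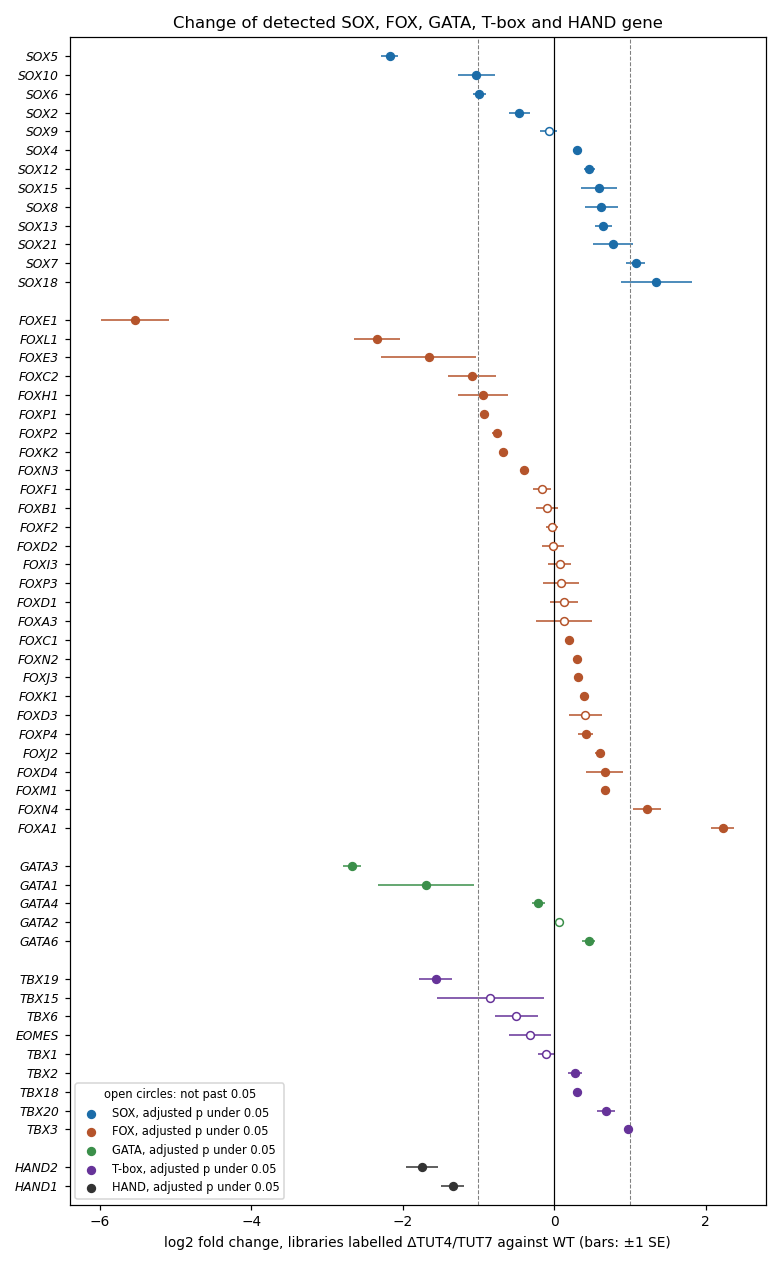
Log2 fold change of ΔTUT4/7 over WT for the factor genes described, grouped by family and ordered within it, with bars of ±1 SE and open circles for genes that did not pass the test. Genes of each of the SOX, FOX, GATA and T-box families lie on both sides of 0, from FOXE1 at -5.53 to FOXA1 at 2.22, and both HAND genes lie left of -1.

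The count limit decides which sparse genes are described. The 10 genes under it were FOXJ1, FOXL2, FOXR1, TBX21, GATA5, TBX10, SOX30, FOXQ1, SOX3 and FOXA2, and none of them was tested. Just outside stood FOXA2 with a largest count of 12 (11 counts summed over WT and 27 over ΔTUT4/7), and just inside stood GATA1 with 13 (32 and 9) and FOXE3 with 18 (35 and 10).

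The DNA upstream of a RefSeq start of 6 of these genes is shown. The HAND2, GATA6 and FOXE1 promoters border an antisense RNA. GATA3, FOXE1 and SOX5 fell farthest among their families, and FOXA1 rose farthest of all the factor genes. The sequences are RefSeq promoter windows on GRCh38.p14, read 5′ to 3′ up to the base before the RefSeq start. They are 250 bases long except for FOXA1 and SOX5, from which 99 and 53 bases nearest the start were taken off because they fall in an exon of the same gene in GENCODE 44. The FOXA1 stretch lies inside the span of the gene in the count table (37589552 to 37596059), because the RefSeq start used is internal to that span. Capitals mark letters of 4 searched motifs on either strand: the GATA letters AGATAA or TGATAA or AGATAG or TGATAG, the forkhead letters TGTTTAC or TGTTTGC, the SOX letters ACAATG or ACAAAG and the T-box letters GGTGTGA.
HAND2 (chr4:173530230-173530479, minus strand): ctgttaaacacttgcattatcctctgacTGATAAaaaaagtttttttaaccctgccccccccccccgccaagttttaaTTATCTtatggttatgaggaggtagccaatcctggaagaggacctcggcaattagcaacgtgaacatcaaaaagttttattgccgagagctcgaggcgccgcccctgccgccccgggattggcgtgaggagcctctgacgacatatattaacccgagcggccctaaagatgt
GATA3 (chr10:8045083-8045332, plus strand): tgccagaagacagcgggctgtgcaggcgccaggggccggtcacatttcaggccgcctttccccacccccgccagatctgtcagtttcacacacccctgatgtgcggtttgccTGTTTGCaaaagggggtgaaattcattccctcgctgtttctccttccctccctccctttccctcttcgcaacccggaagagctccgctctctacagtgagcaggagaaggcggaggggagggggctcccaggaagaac
GATA6 (chr18:22169339-22169588, plus strand): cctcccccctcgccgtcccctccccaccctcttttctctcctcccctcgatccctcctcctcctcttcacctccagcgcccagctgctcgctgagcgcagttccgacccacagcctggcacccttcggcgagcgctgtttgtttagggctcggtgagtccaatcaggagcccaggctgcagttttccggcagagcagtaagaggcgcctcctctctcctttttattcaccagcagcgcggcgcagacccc
FOXE1 (chr9:97852976-97853225, plus strand): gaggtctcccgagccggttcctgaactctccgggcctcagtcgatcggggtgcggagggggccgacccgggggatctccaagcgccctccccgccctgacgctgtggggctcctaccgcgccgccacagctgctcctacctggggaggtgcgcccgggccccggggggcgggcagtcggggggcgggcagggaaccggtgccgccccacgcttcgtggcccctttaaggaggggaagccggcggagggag
SOX5 (chr12:24562545-24562741, minus strand): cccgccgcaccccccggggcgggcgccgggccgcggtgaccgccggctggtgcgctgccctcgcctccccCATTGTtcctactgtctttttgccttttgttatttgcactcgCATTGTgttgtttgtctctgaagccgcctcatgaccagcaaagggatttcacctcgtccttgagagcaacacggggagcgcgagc
FOXA1 (chr14:37595349-37595499, minus strand): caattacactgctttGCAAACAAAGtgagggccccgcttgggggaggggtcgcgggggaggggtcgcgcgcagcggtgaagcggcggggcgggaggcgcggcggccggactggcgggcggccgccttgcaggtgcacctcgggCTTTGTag

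HAND2 held 2 matches to the GATA letters, 222 and 172 bases before its start. GATA3 held a forkhead match 138 bases before its start and no GATA match. In FOXA1 a forkhead match at 235 bases overlaps a SOX match at 231 bases, and another SOX match lies 107 bases before the internal RefSeq start. SOX5 held 2 SOX matches, at 180 and 138 bases, and FOXE1 and GATA6 held no match. A RefSeq window was matched for 40 of the 58 genes, the one nearest the gene's start. The windows over all genes were the most upstream of each gene and include noncoding genes, so the sets compared here are not matched. The GATA letters occurred in 8 of these 40 windows, against 23.0% of 27305 windows of the same 250 bases over all genes. The SOX letters occurred in 6 (against 21.4%), the forkhead letters in 4 (against 6.09%) and the T-box letters in 2 (against 2.73%). A match describes letters and is not evidence of binding. Exons of HAND2-AS1, GATA6-AS1 and PTCSC2, lncRNAs on the opposite strand, reach into the HAND2, GATA6 and FOXE1 windows in GENCODE 44. The windows of the factor genes were rich in CpG dinucleotides, with a median of 20 per window against 10 over all genes, and in G and C (66.8% against 57.6%).

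HAND1 and HAND2, which act in heart, limb and sympathetic neuron development, were both more than 2-fold lower. HAND1 (chromosome 5, 154474972 to 154478227) measured 7.64, 6.42 and 8.28 CPM in WT and 2.96, 3.20 and 2.66 CPM in ΔTUT4/7. Every ΔTUT4/7 library lay below every WT library, with a log2 fold change of -1.34 ± 0.15, adjusted p = 1.33e-07. HAND2 (chromosome 4, 173524969 to 173530229) measured 4.33, 3.50 and 4.24 CPM in WT and 1.03, 1.13 and 1.48 CPM in ΔTUT4/7. The groups again did not overlap, and the log2 fold change was -1.74 ± 0.21, adjusted p = 3.75e-07. TWIST1 and TWIST2, relatives of the HAND proteins that share their dimer partners, went opposite ways: TWIST1 measured 7.18, 8.35 and 7.86 CPM in WT and 4.09, 4.12 and 4.04 CPM in ΔTUT4/7 (-0.94 ± 0.13, adjusted p = 3.12e-06), and TWIST2 3.05, 2.54 and 2.97 CPM in WT and 5.09, 4.02 and 4.75 CPM in ΔTUT4/7 (0.71 ± 0.17, adjusted p = 0.00114). Of the widely expressed partners, TCF3 (0.29 ± 0.06) and TCF12 (0.20 ± 0.06) were higher and TCF4 (-0.14 ± 0.05) lower. ID1 (-0.41 ± 0.14), ID2 (-0.97 ± 0.05), ID3 (-0.63 ± 0.07) and ID4 (-0.45 ± 0.05), which bind such partners and keep them off DNA, were all lower. The calls of TCF12, TCF4, TCF3 and ID1 did not all hold: TCF3 was lost with limma on log2(CPM + 1), TCF12 also with other scalings, and TCF4 and ID1 without certain libraries.

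The GATA factors went in different directions. GATA3 (chromosome 10, 8045378 to 8075198), a regulator of T cells, breast epithelium and the inner ear, fell most. It measured 22.0, 18.6 and 22.8 CPM in WT and 3.34, 3.35 and 3.22 CPM in ΔTUT4/7 with no overlap. The log2 fold change was -2.67 ± 0.12, adjusted p = 3.71e-14. GATA6 (chromosome 18, 22169589 to 22202528), a heart and endoderm factor, was higher, at 18.6, 20.8 and 18.2 CPM in WT and 24.7, 29.0 and 25.4 CPM in ΔTUT4/7 (0.45 ± 0.08, adjusted p = 8.42e-05). GATA2, a blood stem cell factor, measured 27.0, 25.4 and 26.8 CPM in WT and 28.5, 27.1 and 27.2 CPM in ΔTUT4/7. Every ΔTUT4/7 library lay just above every WT library, but GATA2 did not pass (0.07 ± 0.07, adjusted p = 0.438). Its 95% interval ran from -0.08 to 0.21 on the log2 scale, and the sign of its change turned negative under other scalings. GATA4, which works beside GATA6, was slightly lower at 23.3, 21.5 and 24.7 CPM in WT and 21.8, 18.4 and 19.6 CPM in ΔTUT4/7 (-0.21 ± 0.09, adjusted p = 0.0402), with overlapping groups, and its call was lost without any of 4 libraries in turn, with no count filter and in DESeq2. GATA1, the red blood cell factor, had only 32 and 9 counts summed over WT and ΔTUT4/7. Its log2 fold change of -1.69 ± 0.64 passed at 0.0284 and was lost without any of 4 libraries and in DESeq2.

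GATA partners were measured as well. ZFPM1, which binds GATA1, was lower (-0.55 ± 0.21, adjusted p = 0.0274, lost in DESeq2 and without WT replicate 1 or 3 or ΔTUT4/7 replicate 2), and ZFPM2, which binds GATA4, did not pass (0.21 ± 0.10, adjusted p = 0.059). LDB2, a bridging protein that links LIM-domain and GATA complexes, measured 0.0509, 0.0385 and 0.163 CPM in WT and 2.56, 2.37 and 3.22 CPM in ΔTUT4/7 (4.82 ± 0.39, adjusted p = 8.16e-10). Its relative LDB1 was higher by 0.35 ± 0.06. Among other zinc finger proteins with a GATA-type finger, GATAD2A, a subunit of the NuRD repressor, measured 76.3, 73.0 and 83.6 CPM in WT and 152, 154 and 148 CPM in ΔTUT4/7 (0.96 ± 0.05, adjusted p = 1.16e-12), while its paralog GATAD2B was lower (-0.39 ± 0.05, adjusted p = 2.14e-06) and TRPS1 was lower (-0.39 ± 0.05, adjusted p = 2e-07).

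**Figure D2:**
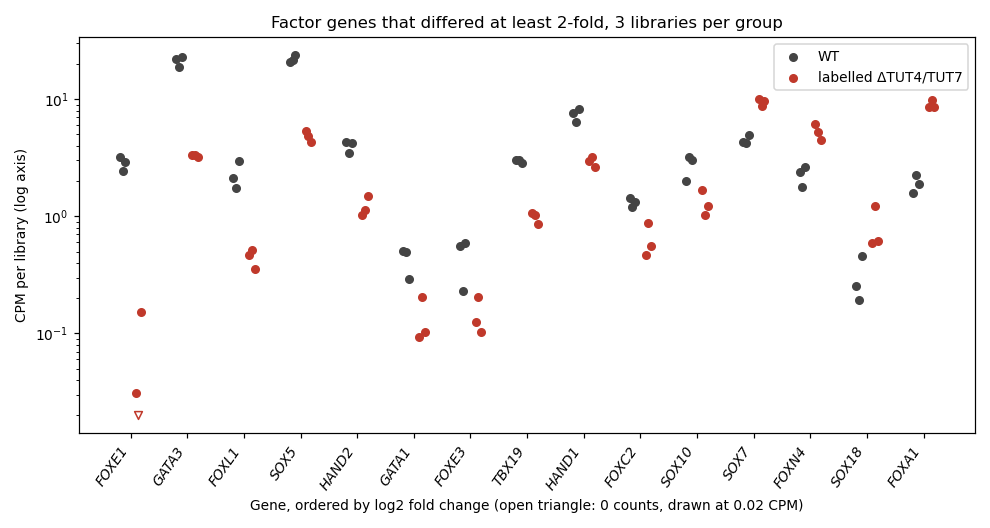
CPM per library on a log axis for the 15 factor genes that differed at least 2-fold, 3 WT libraries in grey and 3 labelled ΔTUT4/7 in red, ordered by log2 fold change; an open triangle marks the library with 0 counts. The red points lie below the grey points for FOXE1 to SOX10 and above them for SOX7 to FOXA1, with no overlap within a gene.

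Of the 13 SOX genes, 4 were lower, 8 higher and 1 did not pass. The shares of 30.8% lower and 61.5% higher stand beside 31.8% and 37.9% of protein-coding genes. Within groups B, D and E of closely related SOX proteins the calls differed in sign. In group D, SOX5 and SOX6 support the action of SOX9 in cartilage. SOX5 (chromosome 12, 23529504 to 24562544) measured 20.8, 21.7 and 23.7 CPM in WT and 5.37, 4.85 and 4.34 CPM in ΔTUT4/7 (-2.17 ± 0.11, adjusted p = 3.02e-13). SOX6 (chromosome 11, 15966449 to 16739591) measured 28.2, 26.6 and 25.8 CPM in WT and 13.8, 12.2 and 14.4 CPM in ΔTUT4/7 (-0.99 ± 0.09, adjusted p = 2.11e-09), just under 2-fold. Both lay below WT in every library, whereas SOX13, their relative, was higher at 12.8, 8.88 and 10.8 CPM in WT and 16.9, 16.0 and 17.7 CPM in ΔTUT4/7 (0.65 ± 0.11, adjusted p = 4.59e-05). In group E, SOX10, the glial and pigment cell factor, measured 1.99, 3.19 and 3.00 CPM in WT and 1.69, 1.03 and 1.23 CPM in ΔTUT4/7 (-1.03 ± 0.25, adjusted p = 0.0011), without overlap. SOX8, which overlaps it in expression and use, measured 1.63, 2.65 and 2.90 CPM in WT and 4.59, 2.99 and 3.52 CPM in ΔTUT4/7 (0.62 ± 0.22, adjusted p = 0.0196), a call lost without replicate 1 of either group, with library size alone, with the replicate number as a term and with limma on log2(CPM + 1). SOX9, which drives cartilage and testis formation, measured 13.1, 11.2 and 11.8 CPM in WT and 10.9, 12.9 and 10.6 CPM in ΔTUT4/7 (-0.07 ± 0.11, adjusted p = 0.582), with overlapping groups and an interval from -0.30 to 0.15.

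The endothelial SOX factors of group F were both higher. SOX7 (chromosome 8, 10723768 to 10730511) measured 4.28, 4.19 and 4.96 CPM in WT and 10.1, 8.76 and 9.55 CPM in ΔTUT4/7 (1.08 ± 0.13, adjusted p = 2.8e-07). SOX18 was sparse, with 24 and 55 counts summed over WT and ΔTUT4/7, and measured 0.255, 0.192 and 0.457 CPM in WT and 0.593, 1.24 and 0.613 CPM in ΔTUT4/7. Its log2 fold change of 1.35 ± 0.46 passed at 0.0169, and was 0.95 at 0.146 without ΔTUT4/7 replicate 2 and 1.10 at 0.0714 without WT replicate 2. In group C, SOX4 (chromosome 6, 21593751 to 21598619), the SOX gene with the highest level, measured 155, 133 and 154 CPM in WT and 181, 182 and 181 CPM in ΔTUT4/7 (0.30 ± 0.05, adjusted p = 5.4e-05, lost with limma on log2(CPM + 1)). SOX12 measured 44.9, 38.6 and 49.4 CPM in WT and 59.9, 59.4 and 64.4 CPM in ΔTUT4/7 (0.46 ± 0.08, adjusted p = 5.88e-05). Both thus rose by less than 2-fold with no overlap. In group B, SOX2, a factor of pluripotent and neural stem cells, was lower at 6.57, 7.50 and 7.83 CPM in WT and 5.93, 5.31 and 4.60 CPM in ΔTUT4/7 (-0.46 ± 0.14, adjusted p = 0.00646), and SOX21, which counteracts it, measured 0.916, 1.15 and 1.21 CPM in WT and 1.72, 1.44 and 2.55 CPM in ΔTUT4/7 (0.77 ± 0.27, adjusted p = 0.0165, lost in DESeq2, with limma on log2(CPM + 1) and without WT replicate 1 or ΔTUT4/7 replicate 3). SOX15 measured 1.17, 1.23 and 1.37 CPM in WT and 2.03, 1.55 and 2.09 CPM in ΔTUT4/7 (0.59 ± 0.24, adjusted p = 0.0406), and its call was lost without any of 4 libraries, in DESeq2, with the replicate number as a term and with library size alone or upper-quartile factors.

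POU factors bind DNA beside SOX2. POU3F3 measured 81.7, 74.2 and 83.9 CPM in WT and 13.8, 13.2 and 12.9 CPM in ΔTUT4/7 (-2.58 ± 0.07, adjusted p = 1.84e-17), POU5F1 4.63, 4.92 and 4.30 CPM in WT and 2.90, 3.76 and 3.83 CPM in ΔTUT4/7 (-0.42 ± 0.16, adjusted p = 0.0358, lost in DESeq2, with the replicate number as a term and without 3 of the libraries in turn), and POU3F2 was higher at 0.32 ± 0.07. CTNNB1, or β-catenin, whose target gene activity several SOX proteins modulate, was higher at 0.83 ± 0.05, adjusted p = 1.99e-12. Of all 33 tested partners and co-regulators of the 5 families, 16 were lower and 11 higher (48.5% and 33.3%), 2 and 1 of them by 2-fold, with a median log2 fold change of -0.10. Over protein-coding genes 31.8% were lower and 37.9% higher, and over all tested genes 29.0% and 28.6%. The TLE co-repressors were split: TLE1 (0.68 ± 0.05) and TLE4 (0.40 ± 0.05) were higher, TLE2 (-1.03 ± 0.13) and TLE5 (-0.65 ± 0.07) lower, and TLE3 did not pass (0.03 ± 0.06, adjusted p = 0.691). SMAD3, with which FOXH1 and EOMES act downstream of activin and nodal, was lower (-0.74 ± 0.06, adjusted p = 4.73e-10).

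Among the 29 FOX genes 9 were lower, 11 higher and 9 did not pass. The shares of 31.0% lower and 37.9% higher lie close to the 31.8% and 37.9% of protein-coding genes. FOXE1 (chromosome 9, 97853226 to 97856717), a thyroid and palate factor, was all but undetected in ΔTUT4/7. It measured 3.21, 2.42 and 2.94 CPM in WT and 0.0312, 0 and 0.153 CPM in ΔTUT4/7, or 216 counts summed over WT and 4 over ΔTUT4/7, with a log2 fold change of -5.53 ± 0.45, adjusted p = 7.62e-10. FOXL1, a factor of the gut mesenchyme, measured 2.14, 1.73 and 2.97 CPM in WT and 0.468, 0.515 and 0.357 CPM in ΔTUT4/7 (-2.34 ± 0.30, adjusted p = 8.53e-07). FOXC2, which shapes lymphatic vessels, measured 1.43, 1.19 and 1.34 CPM in WT and 0.468, 0.876 and 0.562 CPM in ΔTUT4/7 (-1.08 ± 0.31, adjusted p = 0.00537), without overlap. FOXE3, a lens factor, had 35 and 10 counts summed over WT and ΔTUT4/7, and its difference of -1.66 ± 0.63 (adjusted p = 0.0284) was lost in DESeq2, with the replicate block (replicate number as a term in the fit) and without any of 4 libraries.

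FOXA1 (chromosome 14, 37589552 to 37596059), which opens chromatin in endoderm and in breast and prostate epithelium, rose more than any other factor gene. It measured 1.58, 2.27 and 1.89 CPM in WT and 8.64, 9.85 and 8.63 CPM in ΔTUT4/7, with a log2 fold change of 2.22 ± 0.16, adjusted p = 9.16e-11. FOXA3 measured 0.458, 0.846 and 0.652 CPM in WT and 0.655, 0.515 and 1.02 CPM in ΔTUT4/7 and did not pass (0.13 ± 0.37, adjusted p = 0.788). FOXN4, a factor of retinal and spinal cord precursors, measured 2.39, 1.77 and 2.64 CPM in WT and 6.08, 5.26 and 4.44 CPM in ΔTUT4/7 (1.22 ± 0.19, adjusted p = 7.93e-06), and its groups did not overlap.

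Several FOX genes with higher levels changed by less than 2-fold, some against their paralogs. FOXK1 and FOXK2, which restrain autophagy genes and steer glucose use, went opposite ways: FOXK1 measured 169.8, 154 and 166 CPM in WT and 216, 206 and 219.7 CPM in ΔTUT4/7 (0.39 ± 0.05, adjusted p = 3.92e-07), and FOXK2 102, 101 and 107 CPM in WT and 64.9, 63.7 and 64.9 CPM in ΔTUT4/7 (-0.68 ± 0.05, adjusted p = 1.42e-10). Their neighbouring genes, the 20 nearest with a mean count of 50 or higher, had medians of 0.40 and -0.51, and subtracting these left -0.0154 for FOXK1 and -0.17 for FOXK2, no longer of opposite sign. Of the FOXP repressors, FOXP1 measured 74.5, 78.7 and 73.4 CPM in WT and 39.0, 37.9 and 42.4 CPM in ΔTUT4/7 (-0.93 ± 0.06, adjusted p = 1.37e-11) and FOXP2, known from speech and language, 35.4, 36.5 and 35.6 CPM in WT and 21.4, 21.4 and 20.9 CPM in ΔTUT4/7 (-0.75 ± 0.07, adjusted p = 3.31e-09). FOXP4 was higher at 14.6, 12.8 and 17.5 CPM in WT and 20.4, 20.7 and 18.9 CPM in ΔTUT4/7 (0.41 ± 0.10, adjusted p = 0.00155), a call lost with limma on log2(CPM + 1). FOXP3, the regulatory T cell factor, did not pass, at 0.09 ± 0.24. FOXN3 was lower (-0.40 ± 0.05, adjusted p = 5.06e-07) while FOXN2 was higher (0.30 ± 0.06, adjusted p = 0.000145, lost in the same limma fit). FOXJ2 (0.60 ± 0.07, adjusted p = 6.66e-08) and FOXJ3 (0.31 ± 0.05, adjusted p = 5.63e-06) both rose. FOXC1 was slightly higher at 104, 94.0 and 107 CPM in WT and 110.4, 124 and 116 CPM in ΔTUT4/7 (0.20 ± 0.06, adjusted p = 0.00477), a call lost when library size alone or upper-quartile factors set the scale and with limma on log2(CPM + 1).

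FOXM1 (chromosome 12, 2857680 to 2877174), which switches on genes of the G2 and M phases of the cell cycle, measured 97.6, 97.8 and 104 CPM in WT and 165, 154 and 156 CPM in ΔTUT4/7 (0.67 ± 0.05, adjusted p = 9.09e-11). Of 10 of its target genes, 7 were higher, 1 lower and none changed by 2-fold, with a median log2 fold change of 0.19. BIRC5, or survivin, rose by 0.53 ± 0.04, CCNB1, or cyclin B1, by 0.48 ± 0.05 and PLK1, a mitotic kinase, by 0.36 ± 0.05. CENPF, a kinetochore protein, was the lower gene, at -0.21 ± 0.04, and CCNB2 (-0.02) and CENPA (-0.04) did not pass. Of the 7 higher calls, AURKB, NEK2 and KIF20A were lost when library size alone set the scale.

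The other FOX genes did not pass or passed weakly. FOXF1 (-0.16 ± 0.12), FOXF2 (-0.03 ± 0.07), FOXB1 (-0.10 ± 0.15), FOXD1 (0.13 ± 0.19), FOXD2 (-0.02 ± 0.14), FOXD3 (0.41 ± 0.22) and FOXI3 (0.07 ± 0.15) did not pass, and FOXD3 passed without WT replicate 1 (0.58 at an adjusted p of 0.0414). FOXH1, the nodal pathway factor, measured 1.43, 1.04 and 1.08 CPM in WT and 0.749, 0.361 and 0.664 CPM in ΔTUT4/7 (-0.94 ± 0.33, adjusted p = 0.0192), and was lost in DESeq2 and without WT replicate 1 or ΔTUT4/7 replicate 2. FOXD4 was higher at 0.67 ± 0.24, adjusted p = 0.0245, a call lost in DESeq2, under the same scalings as FOXC1 and without any of 4 libraries, and its count is uncertain because near-identical FOXD4-like genes share its reads.

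FOXO genes were left out by the rule and behaved unlike each other. FOXO4 measured 20.2, 20.6 and 25.4 CPM in WT and 119.8, 115 and 124 CPM in ΔTUT4/7 (2.43 ± 0.07, adjusted p = 1.11e-14). FOXO1 was lower at 70.5, 68.2 and 64.9 CPM in WT and 34.0, 34.0 and 36.8 CPM in ΔTUT4/7 (-0.96 ± 0.06, adjusted p = 9.99e-12), and FOXO3 did not pass at -0.08 ± 0.05, adjusted p = 0.138. FOXO6 was sparse and measured 0.356, 0.269 and 0.717 CPM in WT and 1.25, 0.722 and 1.07 CPM in ΔTUT4/7 (1.15 ± 0.39, adjusted p = 0.0146, lost in DESeq2 and without ΔTUT4/7 replicate 1 or WT replicate 2). Of all 23 related factors outside the rule, 10 were lower and 8 higher (43.5% and 34.8%). The shares were 31.8% and 37.9% over protein-coding genes, and 29.0% and 28.6% over all tested genes. By 2-fold 1 of the 23 was lower and 2 higher, and their median log2 fold change was -0.08. The 2-fold lower gene was TOX, an HMG-box factor of T cells, at 0.916, 1.11 and 1.01 CPM in WT and 0.281, 0.412 and 0.102 CPM in ΔTUT4/7 (-1.91 ± 0.42, adjusted p = 0.000488). MGA, which carries a T-box, was lower by -0.36 ± 0.04, and HBP1, an HMG-box repressor, by -0.80 ± 0.07.

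The T-box genes comprised 1 lower, 4 higher and 4 that did not pass. The shares of 11.1% lower and 44.4% higher stand beside 31.8% and 37.9% of protein-coding genes. TBX19 (chromosome 1, 168280877 to 168314426), which turns on the POMC gene in the pituitary, measured 3.00, 3.00 and 2.87 CPM in WT and 1.06, 1.03 and 0.868 CPM in ΔTUT4/7 (-1.57 ± 0.22, adjusted p = 2.97e-06), the groups lying well apart. TBX3 (chromosome 12, 114670255 to 114684175), a limb and breast factor and the T-box gene with the highest level, measured 72.9, 69.4 and 74.7 CPM in WT and 143, 146 and 138 CPM in ΔTUT4/7 (0.97 ± 0.05, adjusted p = 3.26e-13), just under 2-fold. TBX20, a heart factor, measured 7.43, 7.50 and 5.93 CPM in WT and 11.3, 10.3 and 11.8 CPM in ΔTUT4/7 (0.69 ± 0.12, adjusted p = 4.27e-05). TBX18 measured 50.4, 50.1 and 49.3 CPM in WT and 61.2, 60.0 and 64.2 CPM in ΔTUT4/7 (0.31 ± 0.05, adjusted p = 5.12e-05). TBX2, the paralog of TBX3, measured 13.4, 12.8 and 14.5 CPM in WT and 17.0, 16.5 and 15.8 CPM in ΔTUT4/7 (0.27 ± 0.09, adjusted p = 0.014), a smaller difference that was lost without ΔTUT4/7 replicate 1 or WT replicate 2 and under the same scalings as FOXC1. TBX1 (-0.11 ± 0.10), TBX6 (-0.50 ± 0.29), EOMES (-0.32 ± 0.28) and TBX15 (-0.85 ± 0.71) did not pass. TBX15 had 29 and 15 counts summed over WT and ΔTUT4/7, and WT replicate 2 alone held 22 of the WT counts. Without that library its fold change turned to 0.55.

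Levels between genes are comparable only per length, so the mean CPM of each gene was divided by its exon length in GENCODE 44. On this scale of CPM per kb, SOX4 stood highest (30.3 in WT and 37.3 in ΔTUT4/7), followed in WT by FOXC1 (25.5 in WT and 29.3 in ΔTUT4/7), FOXM1 (20.3 in WT and 32.2 in ΔTUT4/7), FOXJ3 (17.4 in WT and 21.5 in ΔTUT4/7), FOXK1 (12.5 in WT and 16.3 in ΔTUT4/7) and TBX3 (12.1 in WT and 23.8 in ΔTUT4/7). TBX3 passed FOXJ3 and FOXK1 in ΔTUT4/7. GATA3 had the highest level of the GATA genes in WT (6.22 in WT and 0.972 in ΔTUT4/7) and GATA2 (5.38 in WT and 5.62 in ΔTUT4/7), GATA4 (5.21 in WT and 4.49 in ΔTUT4/7) and GATA6 (5.06 in WT and 6.94 in ΔTUT4/7) all exceeded it in ΔTUT4/7. FOXA1 stood at 0.433 in WT and 2.05 in ΔTUT4/7, and SOX5 at 1.96 in WT and 0.430 in ΔTUT4/7. The lowest level was that of TBX15 in WT (0.0881 in WT and 0.0483 in ΔTUT4/7) and of FOXE1 in ΔTUT4/7 (0.818 in WT and 0.0176 in ΔTUT4/7).

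**Figure D3:**
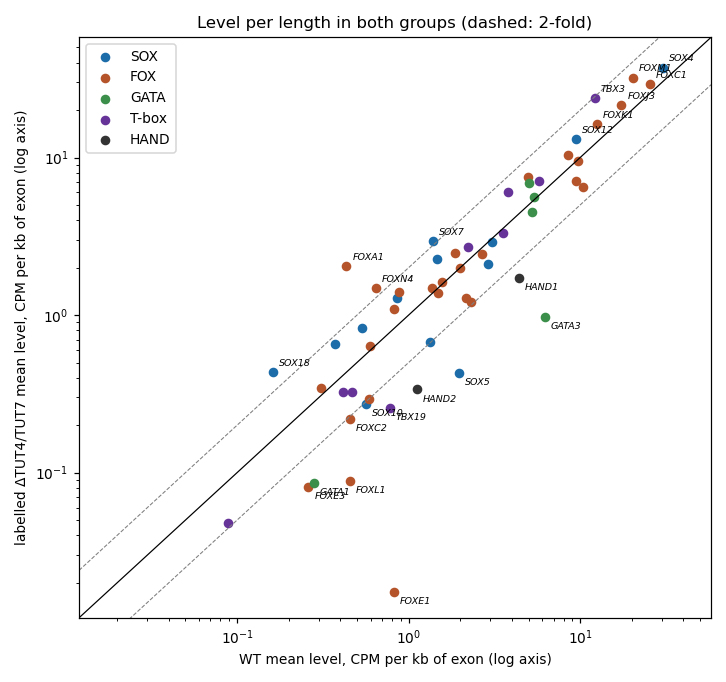
Mean level of the factor genes described, in CPM per kb of exon, WT on the x axis and libraries labelled ΔTUT4/7 on the y axis, both log axes, with dashed lines at 2-fold. SOX4, FOXC1 and FOXM1 lie at the upper right close to the line of equal level, GATA3 and SOX5 lie well below the lower dashed line, FOXE1 lies farthest below it, and FOXA1 lies above the upper one.

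Some factor genes lie close together on a chromosome. On chromosome 16, FOXF1, FOXC2 and FOXL1 start within 65.8 kb of each other: FOXF1 did not pass (-0.16 ± 0.12), while FOXC2 and FOXL1, whose starts are 9.5 kb apart, were both 2-fold lower. On chromosome 6, FOXC1 was slightly higher and FOXF2, 220.3 kb away, did not pass. On chromosome 1, FOXD2 did not pass and FOXE3, 21.8 kb away, was called lower on few counts. GATA4 and SOX7 start 953.2 kb apart on chromosome 8, and SOX7 was 2-fold higher where GATA4 was slightly lower.

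Each gene was also set beside the 20 nearest genes whose mean count reached 50. For HAND1 (-0.04), SOX5 (-0.04), FOXE1 (-0.06), TBX19 (0.06) and FOXA1 (-0.19) the median log2 fold change of the neighbours lay near 0, and for GATA3 it was 0.65, opposite to the gene. HAND2 had lower neighbours (-0.57), which left -1.17 after subtraction. The neighbours of FOXP1 were at -1.53, lower than FOXP1 itself, and subtracting them turned its value to 0.60. SOX18 (0.76) and TBX3 (0.58) had higher neighbours, and subtraction left 0.59 and 0.40. With the neighbours subtracted, 11 factor genes that passed the test were 2-fold lower and 3 higher. SOX6 and FOXH1 then took the place of FOXC2 and SOX10 among the lower ones, and FOXD4 joined FOXA1 and SOX7 among the higher ones, in place of SOX18 and FOXN4.

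**Figure D4:**
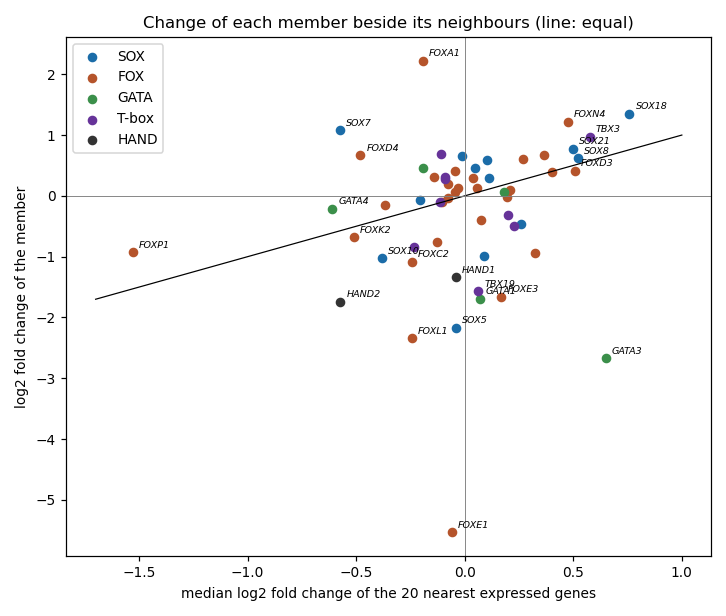
Log2 fold change of the factor genes described (y axis) against the median log2 fold change of its 20 nearest expressed genes (x axis), with a line of equal values. FOXE1, SOX5 and FOXA1 lie far from the line with neighbours near 0, GATA3 lies far below it with higher neighbours, and FOXP1 lies above it with neighbours at -1.53.

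Long noncoding RNAs (lncRNAs) arise beside many developmental factor genes. In the table, 47 lncRNA genes overlapped a factor gene or started within 5 kb of its start, at 32 of the 58 genes, and 38 of them were tested. Of the 38, 10 were 2-fold lower and 1 higher (26.3% and 2.63%), against 19.9% and 4.71% of all 4966 lncRNAs tested, and their median log2 fold change of -0.33 lay near the -0.29 of all lncRNAs. At any size 13 were lower and 3 higher (34.2% and 7.89%, against 30.6% and 10.8%). Whether reads were counted by strand is not given in the sources used here, so reads of a gene and of its antisense partner cannot be told apart where the 2 overlap.

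In some pairs gene and lncRNA were called in the same direction. GATA3-AS1 measured 2.75, 2.00 and 2.31 CPM in WT and 0.218, 0 and 0.306 CPM in ΔTUT4/7 (-3.65 ± 0.42, adjusted p = 3.32e-07), lower like GATA3. HAND2-AS1, whose 2 RefSeq starts lie 229 and 1629 bases from that of HAND2 on the opposite strand, measured 2.29, 2.19 and 1.96 CPM in WT and 1.06, 1.29 and 0.766 CPM in ΔTUT4/7 (-1.04 ± 0.25, adjusted p = 0.00117), lower like HAND2. SOX5-AS1 (-1.43 ± 0.46), SOX2-OT (-1.41 ± 0.34), which spans SOX2, and FOXP1-IT1 (-1.02 ± 0.17) were lower like their genes.

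In other pairs the calls differed. GATA2-AS1 measured 30.4, 27.3 and 29.0 CPM in WT and 12.2, 11.1 and 11.6 CPM in ΔTUT4/7 (-1.31 ± 0.08, adjusted p = 1.64e-11) although GATA2 did not pass. The log2 ratio of GATA2-AS1 to GATA2 was 0.13 in WT and -1.24 in ΔTUT4/7. GATA6-AS1, which starts 621 bases from GATA6 on the opposite strand in RefSeq, measured 1.83, 2.00 and 2.31 CPM in WT and 0.281, 0.258 and 0.460 CPM in ΔTUT4/7 (-2.64 ± 0.31, adjusted p = 2.35e-07), lower where GATA6 was higher. FENDRR, an lncRNA of the lateral mesoderm that starts beside FOXF1, measured 11.6, 13.5 and 13.6 CPM in WT and 3.96, 4.59 and 3.63 CPM in ΔTUT4/7 (-1.67 ± 0.13, adjusted p = 2.26e-10) although FOXF1 did not pass. SOX9-AS1 was lower (-1.68 ± 0.48, adjusted p = 0.00492) where SOX9 did not pass, and AC105001.1 at SOX7 was lower (-0.63 ± 0.21, adjusted p = 0.0123, lost without ΔTUT4/7 replicate 1 or WT replicate 2) where SOX7 was higher. The difference in log2 ratio was tested per pair by a two-sided exact permutation test over the 6 libraries, which with 3 against 3 cannot give a p below 0.1. That smallest value was reached for GATA2, GATA6 and SOX7 among others, and the lowest adjusted p over 51 ratios was 0.283.

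**Figure D5:**
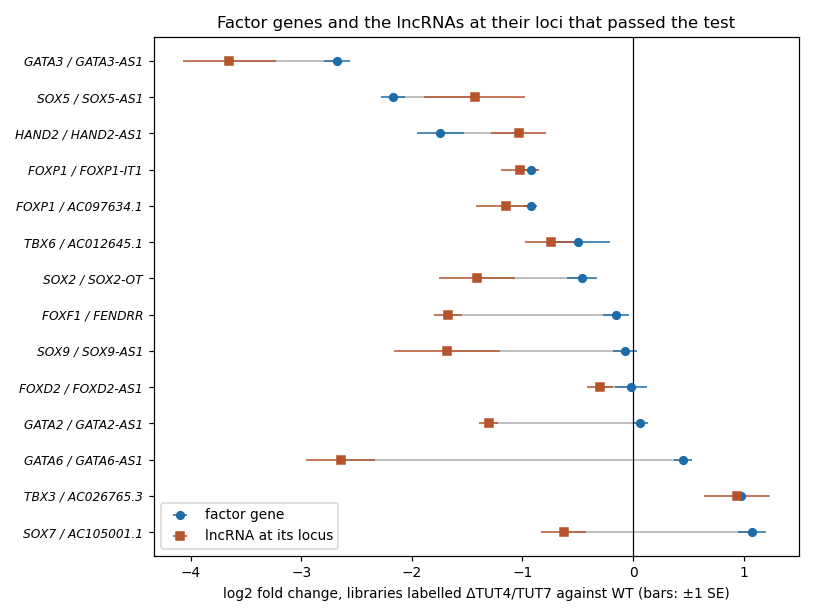
Log2 fold change with ±1 SE of lncRNAs that passed the test (orange squares) and of the factor gene at whose locus it lies (blue circles), joined by a grey line. Both lie left of 0 for GATA3, SOX5, HAND2 and FOXP1 among others, and both right of 0 for TBX3. They lie on opposite sides for GATA6, SOX7 and GATA2, the last of which did not pass (0.07).

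Genes known to act downstream of these factors were counted in lists written for each tissue, without a test of the lists. The counts stand beside 31.8% lower and 37.9% higher over protein-coding genes, 10.6% and 6.26% by 2-fold. Over all tested genes the shares were 29.0% and 28.6%, and 12.4% and 5.90% by 2-fold. Of 11 cartilage genes, which SOX9 drives together with SOX5 and SOX6, 8 were tested, 2 were lower and 2 higher (median 0.17). COL2A1, the main cartilage collagen, measured 1.48, 1.15 and 1.30 CPM in WT and 0.312, 0.0515 and 0.409 CPM in ΔTUT4/7 (-2.28 ± 0.41, adjusted p = 6.64e-05), COL9A2 3.77, 3.38 and 3.62 CPM in WT and 0.718, 0.928 and 0.919 CPM in ΔTUT4/7 (-2.09 ± 0.22, adjusted p = 5.36e-08) and MATN1 0.255, 0.615 and 0.587 CPM in WT and 1.16, 1.13 and 1.43 CPM in ΔTUT4/7 (1.29 ± 0.34, adjusted p = 0.00269). Of 10 glial and melanocyte genes, which SOX10 drives, 7 were tested, 5 lower and 1 higher (median -1.33), and 4 of the lower ones by 2-fold. EDNRB, the endothelin receptor of neural crest cells, measured 3.41, 3.08 and 2.71 CPM in WT and 0.187, 0.412 and 0.0511 CPM in ΔTUT4/7 (-3.81 ± 0.36, adjusted p = 7.44e-09). MITF, the master factor of pigment cells, measured 14.6, 14.6 and 14.4 CPM in WT and 5.05, 5.41 and 7.00 CPM in ΔTUT4/7 (-1.33 ± 0.12, adjusted p = 3.94e-09). PMEL, a pigment granule protein, was also lower (-1.33 ± 0.28), and PMP22, a myelin protein, was the higher gene (0.35 ± 0.10, lost with library size alone). The list's summed level was 36.7 to 38.9 CPM in WT and 24.4 to 26.8 CPM in ΔTUT4/7.

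The remaining lists were short, mostly because listed genes were absent from the count table, and in part because of the count limit. Of the pluripotency and endoderm lists only 3 and 2 genes were in the table, and all of these were tested. Of 8 pluripotency genes, 3 were tested and 2 were lower (median -0.42). SALL4 measured 6.57, 5.77 and 6.42 CPM in WT and 0.156, 0.722 and 0.409 CPM in ΔTUT4/7 (-3.99 ± 0.29, adjusted p = 9.89e-10), and POU5F1 is given above. Of 10 cardiac genes, 5 were tested, 2 lower and 2 higher (median 0.38). NKX2-5 (0.38 ± 0.10, adjusted p = 0.00344, lost with limma on log2(CPM + 1)) rose, and PLN, a calcium pump regulator, was lower (-0.74 ± 0.15, adjusted p = 0.000222). MYH6, a cardiac myosin, had 0 counts over WT and 23 over ΔTUT4/7, at least 8.24-fold higher against a floor of 3 counts over the group. Its ΔTUT4/7 counts were uneven, at 16, 2 and 5 in replicates 1, 2 and 3. Of 8 sympathoadrenal genes, 4 were tested, 2 lower and 2 higher (median 0.45). CHGA, a granule protein, measured 0.611, 0.423 and 0.554 CPM in WT and 1.90, 2.32 and 2.25 CPM in ΔTUT4/7 (2.02 ± 0.28, adjusted p = 1.89e-06) and ISL1 was lower (-0.55 ± 0.09, adjusted p = 1.82e-05). CHGB (1.46 ± 0.53, adjusted p = 0.0228) and PHOX2A (-1.43 ± 0.60, adjusted p = 0.0475) passed on few counts and were lost in DESeq2 and without several libraries, PHOX2A also with the replicate block.

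Of 10 endoderm genes, 2 were tested. CXCR4, a chemokine receptor, measured 1.12, 0.884 and 1.37 CPM in WT and 3.03, 4.49 and 3.01 CPM in ΔTUT4/7 (1.62 ± 0.24, adjusted p = 5.28e-06), and EPCAM, an epithelial adhesion protein, had 86 counts over WT and 0 over ΔTUT4/7, at least 26.7-fold lower against the same floor. Of 8 mesoderm genes, 5 were tested, 2 lower and 1 higher (median 0.08). CDX2, a homeobox factor of the posterior embryo, measured 20.1, 19.7 and 20.4 CPM in WT and 30.3, 30.8 and 32.4 CPM in ΔTUT4/7 (0.63 ± 0.07, adjusted p = 1.06e-07), and the lower calls of MIXL1 (-0.83 ± 0.34) and MESP2 (-0.91 ± 0.36) were lost in DESeq2 and without 4 of the libraries in turn, that of MIXL1 also with the replicate block. Of 9 motile cilium genes, 4 were tested and RSPH4A was lower (-0.41 ± 0.16, adjusted p = 0.0302, lost in DESeq2 and without any of 4 libraries) (median -0.52). Floors on counts cover counting error only. The intervals given for GATA2 and SOX9 rest on the standard error of the edgeR fit, which includes the spread between libraries.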

How the data were processed

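RNA depleted of ribosomal RNA was sequenced from 3 WT and 3 ΔTUT4/7 HEK 293T libraries, grouped by the genotype in the labels. Read pairs were aligned by the authors with STAR 2.7.3a (hg38), and Ensembl genes were quantified in Partek Flow 10.0.22. The deposited values are estimated counts from its expectation-maximisation model, which shares reads between similar or overlapping genes, and 45.2% to 50.0% of a library's values were fractional (further than 1e-09 from a whole number). The authors' table of their own comparison, with p-values, ratios and fold changes, was not used.

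Estimated counts were rounded. The 23952 genes with a largest count above 12 were tested for group by the robust quasi-likelihood F test of edgeR 4.0.16 (R 4.3.3) after TMM scaling, and p-values were adjusted by Benjamini-Hochberg over all of them. The study's own test in Partek was replaced by edgeR. The steps were tested on simulated data. Library totals of 18757228 to 33148937 counts limit sparse genes most. Across genes, log2 CPM correlated with r of 0.986 to 0.989 within groups and 0.942 to 0.944 between them, and no pair of libraries agreed within sampling noise. Labels give the replicates as biological, with no word on separate cultures, so p-values measure the spread between these libraries.

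Genes named were TUT4 and TUT7, the members called at 2-fold or more (up to 8 a family) and the 3 with the highest CPM in each family, HAND1, up to 3 called genes of each list, and noncoding genes overlapping a member or starting within 5 kb (rows spanning over 1 Mb left out). Other members and list genes were named after their values were seen, to account for the members and for related pairs, and 2 genes are counted but not reported by name here. Members and lists were chosen with earlier results of these data known. The lists were related factors outside the rule, partners and co-regulators, cartilage, glial and melanocyte, pluripotency, endoderm, cardiac, sympathoadrenal, mesoderm, FOXM1 target and motile cilium genes, and markers of fibroblasts and of the HEK 293T lineage. Alternatives were RLE, upper-quartile and library-size scaling, DESeq2 1.42.0, limma 3.58.1 (voom and log2(CPM + 1)), stricter and looser filters, a replicate block, omission of each library, and neighbouring genes subtracted. lncRNA ratios used log2 of CPM with 0.1 added.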

Additional observations from a re-analysis of the deposited data

How the results depend on the processing

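Counts of factor genes 2-fold lower and higher, 11 and 4, were 9 and 4 in DESeq2, 11 and 4 in limma-voom, with RLE scaling and with no count filter, and 9 and 1 with limma on log2(CPM + 1), a scale that shrinks sparse genes. With a mean count of at least 50 they were 6 and 3 (43 genes tested). Library size alone and upper-quartile factors both gave 14 and 3, and moved the median of all genes from -0.02 to -0.13 and -0.12. Without each library in turn, 9 to 10 were lower and 3 to 4 higher. Over all genes, 2969 lower and 1412 higher calls became 1556 and 538 with limma on log2(CPM + 1) and 1440 and 722 with a mean count of at least 50, where 15575 genes were tested, and ranged from 2829 to 2955 and from 1321 to 1443 without a library.

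Among called factor genes, the direction turned for FOXK1 (-0.0154), GATA4 (0.40) and FOXP1 (0.60) with neighbouring genes subtracted. Among those that did not pass, subtraction turned GATA2 (-0.11), FOXB1 (0.0104), FOXD3 (-0.10), FOXF1 (0.21), FOXF2 (0.0492), FOXP3 (-0.11), SOX9 (0.13) and TBX1 (0.0067). Library size alone turned GATA2 (-0.0486), FOXI3 (-0.0437) and FOXP3 (-0.0178), upper-quartile factors GATA2 (-0.0348), FOXI3 (-0.0305) and FOXP3 (-0.0061), and limma on log2(CPM + 1) GATA2 (-0.0501), FOXI3 (-0.0479), FOXP3 (-0.0095) and FOXD1 (-0.0034). Leaving out a library turned FOXA3, FOXB1, FOXD1, FOXD2, FOXI3 and TBX15, none of which passed. The cause was not tested.

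Same-numbered replicates did not deviate together (r of 0.05, -0.01 and -0.02), so the numbers name libraries only. The replicate block gave 11 lower and 4 higher factor genes, and 2901 and 1377 of all genes. FOXE3, SOX15 and SOX8, and among the other genes named POU5F1, MIXL1 and PHOX2A, lost their calls under the block.

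FOXE3, GATA1, SOX18, SOX15, SOX21 and FOXH1, all with a mean count under 50, lost their calls without at least 1 library, as did FOXD4, GATA4, SOX8 and TBX2 above that level. FOXE1, FOXL1, FOXC2 and TBX19, also under 50, kept theirs. What part depth had in the lost calls was not tested.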
